A study of Mus musculus with 3 samples.

Results

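Ccl2, Ccl7, Ccl8 and Ccl12, the mouse genes for chemokines that bind the receptor CCR2, and Ccr2 itself were followed in single-cell RNA-Seq of leukocytes from mouse lung grafts. The 5 genes were chosen by name, with earlier results of these data known, and all 5 symbols were matched among the 32285 genes counted. There were 3 libraries, each a single library of cells pooled from 2 mice: naive left lungs of C57BL/6J mice, and left lungs of CD45.2+ C57BL/6J donors transplanted into CD45.1+ congenic C57BL/6 recipients and reperfused for 2 hours or for 3 days. The authors list their CD45.1 mice as the strain B6.SJL-Ptprc^a Pepc^b/BoyJ. Both grafts had 60 min of cold ischemia at 4 °C and 45 min of warm ischemia at 28 °C. Cells were sorted for CD45.1, so the transplant libraries were meant to hold recipient cells, and what donor cells of the graft made was not measured here. The recipient origin of the kept cells was not checked. The same sort is given for the naive library, although the naive lungs held no recipient cells. Since each condition was 1 library, no test between conditions was possible: levels are given with exact 95% intervals that cover counting error only, and differences between the mice of a condition are unknown.

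CCR2 is a G protein-coupled chemokine receptor best known for the exit of classical monocytes from bone marrow and their entry into inflamed tissue. CCL2 (MCP-1), CCL7 (MCP-3), CCL8 (MCP-2) and CCL12 (MCP-5) belong to the CC chemokines, small secreted proteins named for a pair of adjacent cysteines near their amino terminus. CCL2 and CCL7 are the ligands most often tied to monocyte recruitment, and in the mouse CCL8 is better known as a ligand of CCR8 than of CCR2.

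The 4 ligand genes lie together on the plus strand of chromosome 11, within 81.2 kb of GRCm38, in the order Ccl2 (chr11:82035571-82037453), Ccl7 (chr11:82045712-82047525), Ccl12 (chr11:82101845-82103400) and Ccl8 (chr11:82115185-82116799), with Ccl11, the gene for eotaxin, between Ccl7 and Ccl12. Ccr2 is on the plus strand of chromosome 9 (chr9:124101950-124113557). To show how alike and yet separable the ligands are, the coding sequence around the adjacent cysteines is given for each (GENCODE vM21 models on GRCm38, plus strand, 5′ to 3′, spliced), with the 2 cysteine codons in capitals:
Ccl2: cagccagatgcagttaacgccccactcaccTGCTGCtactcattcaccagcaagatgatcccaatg
Ccl7: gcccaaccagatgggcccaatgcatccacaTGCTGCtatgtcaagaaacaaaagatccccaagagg
Ccl12: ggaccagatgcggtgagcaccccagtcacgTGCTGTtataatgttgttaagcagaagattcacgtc
Ccl8: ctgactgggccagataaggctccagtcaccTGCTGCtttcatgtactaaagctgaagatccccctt
Each coding sequence held a single such pair, and Ccl12 alone of the 4 spelled its second cysteine TGT. Over whole coding sequences, with matches taken as a share of the longer sequence, the pairs of ligands were 43.9% to 65.4% identical. The Ccl2 coding sequence has 447 bases against 294 to 315 for the others, which lowers its pairs on this measure. Pairs without Ccl2 were 63.2% to 65.4% identical, and pairs with Ccl2 are not ranked against them. The longest stretch that any pair of their transcripts had in common was 23 bases, between Ccl2 and Ccl7.

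The naive, 2-hour and 3-day libraries kept 2422, 10283 and 8324 cells after filtering, with medians of 7298, 878 and 5716 unique molecular identifiers (UMIs) per cell. A UMI counts a captured transcript molecule 1 time whatever its length, and levels are given as CPM, a gene's UMIs scaled to 1000000 UMIs of the same cells. The kept cells of the libraries shared between 0 and 21 barcodes per pair. Cells were named from marker genes other than the 5 studied here. In the same order there were 108, 7 and 829 macrophage-like and 142, 499 and 1249 monocyte-like cells. Despite the sort, 68, 29 and 111 endothelial-like and 21, 7 and 23 epithelial-like cells were kept. The macrophage-like cells differed in kind between libraries: 102 of the naive ones were alveolar macrophage-like, whereas at 3 days 640 were led by Saa3 and Arg1 (Saa3/Arg1 macrophage-like) and 188 by Fcrls, Ms4a7 and the complement genes C1qa, C1qb and C1qc (C1q macrophage-like). The limit of 25000 UMIs or 6000 genes per cell removed 208 naive barcodes. Of all 499 naive barcodes left out by any filter, 178 carried macrophage markers, and their ligand UMIs are given with each result they touch.

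Over all kept cells, Ccl2, Ccl7, Ccl12 and Ccr2 were most abundant at 3 days. Ccl2 stood at 14.5 CPM in the naive library (297 UMIs, interval 12.9 to 16.2), 23.4 CPM at 2 hours (251 UMIs, 20.6 to 26.5) and 106 CPM at 3 days (6753 UMIs, 103 to 109). Ccl7 stood at 2.29 CPM (47 UMIs, 1.69 to 3.05), 0.933 CPM (10 UMIs, 0.447 to 1.72) and 38.5 CPM (2453 UMIs, 37.0 to 40.0). The 3-day intervals lay above the naive ones for both, by 7.31-fold for Ccl2 and 16.8-fold for Ccl7. Ccl12 was sparse, with 8, 2 and 148 UMIs, and was 5.95-fold higher at 3 days than in the naive library (log2 ratio 2.57, interval 1.56 to 3.81). Ccl8 had 28, 0 and 113 UMIs, and its log2 ratio of 3 days to naive was 0.38 with an interval from -0.23 to 1.03, which does not separate the libraries. Of the 28 naive Ccl8 UMIs, 25 came from 1 cell, and without the top cell of each library the log2 ratio was 3.19. As a mean over cells of each cell's share it was -1.42, so the direction for Ccl8 depended on the measure. Ccr2 stood at 101 CPM (2069 UMIs), 49.5 CPM (531 UMIs) and 323 CPM (20611 UMIs), 3.20-fold higher at 3 days than in the naive library.

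Read against all genes, these rises stood out at 3 days and not at 2 hours. Both comparisons share the naive library. As the 5 genes were chosen with earlier results of these data known, the counts that follow are descriptions and not a test. At 3 days 4 of the 5 genes were at least 2-fold above naive, and 0 of the 5 at least 2-fold below, where 6.72% of the 15473 genes with at least 20 UMIs in the pair of libraries were higher and 29.4% lower. At 2 hours 0 of the 4 genes with that many UMIs were at least 2-fold higher and 3 (Ccl7, Ccl8 and Ccr2) at least 2-fold lower, where 7.31% of 14314 genes were higher and 40.4% lower. The median gene itself had a log2 ratio to naive of -0.70 at 2 hours and -0.30 at 3 days, and the naive counts came from a later version of the counting software. The labels list both a 5′ and a 3′ capture kit without saying which library used which, whereas the authors' methods name only a 3′ kit. Whether the libraries differed in kit is thus unknown, and such a difference cannot be told apart from the conditions. The median was -0.12 and 0.13 for genes with at most 10 kb of introns but -1.07 and -0.64 for longer ones, and the 5 members have 745 to 4848 bp of introns. Relative to the median of all genes, the log2 ratios of Ccl2, Ccl7 and Ccr2 were 1.39, -0.60 and -0.33 at 2 hours, and 3.17, 4.37 and 1.98 at 3 days. Scaling to the UMIs of short-intron genes moved the median of all genes by -0.48 at 2 hours and -0.38 at 3 days and left the log2 ratios of Ccl2, Ccl7, Ccl12 and Ccr2 at 3 days above 1 (2.49, 3.69, 2.20 and 1.30). With all deposited barcodes, and so with the naive macrophages left out, the log2 ratio at 3 days was 1.99 for Ccl2, 2.21 for Ccl7 and 2.09 for Ccr2. Sums over all cells mix how many cells of a type were captured with how much each held, and the levels within types follow.

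**Figure D1:**
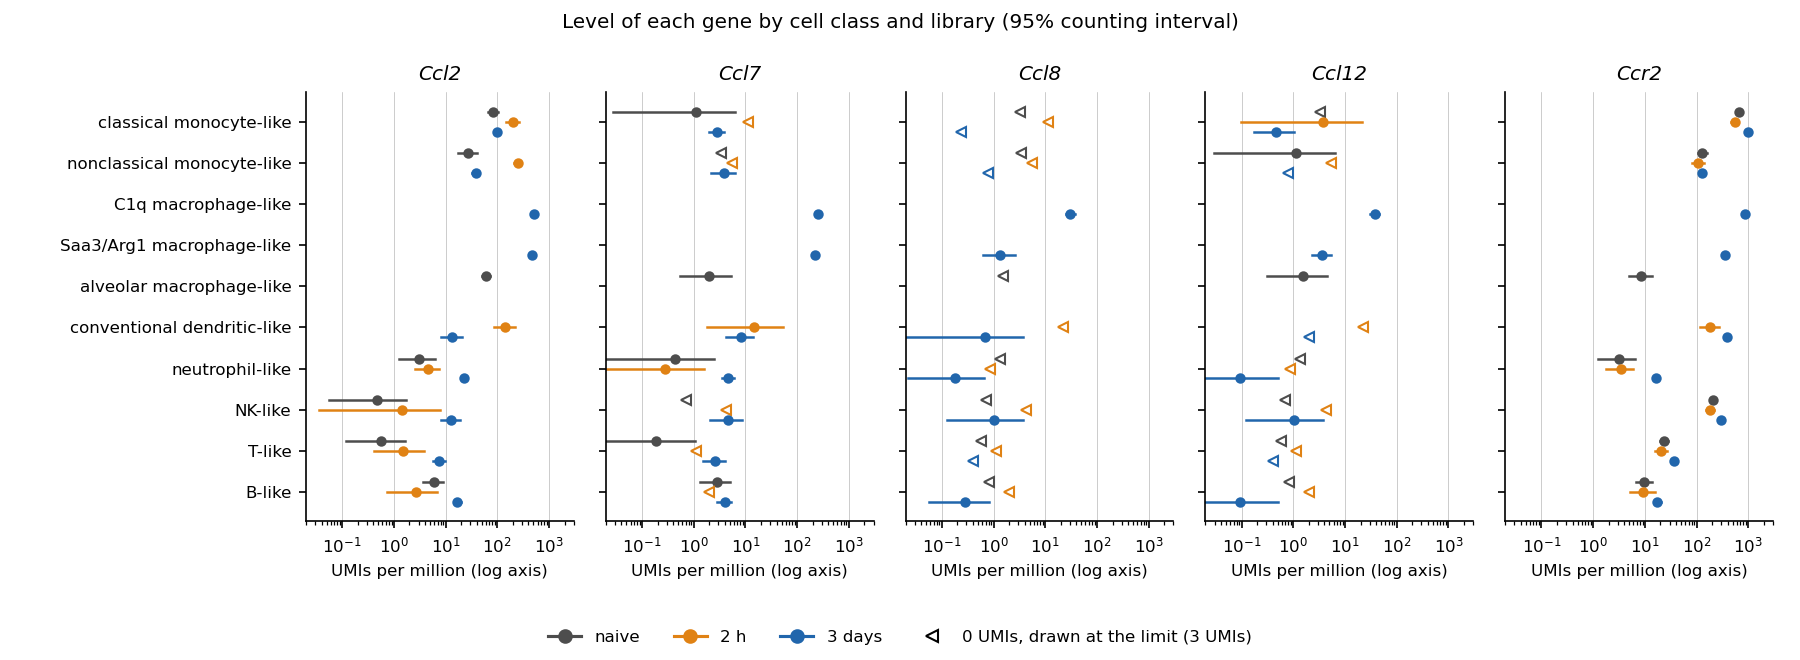
Level of each gene in CPM (log axis) by cell class, in the naive (grey), 2-hour (orange) and 3-day (blue) libraries, for classes of at least 50 cells. Points are levels with 95% counting intervals, and open triangles mark 0 UMIs at the limit that a count of 0 allows (3 UMIs). Both macrophage-like classes at 3 days sit far to the right of all others for Ccl7 (248 and 222 CPM), whereas Ccl2 spreads over monocyte-like and macrophage-like cells.

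Ccl2 was held mostly by macrophage-like and monocyte-like cells in every library in which both could be measured. At 3 days macrophage-like cells held 68.5% of all Ccl2 UMIs at 474 CPM (461 to 488) and monocyte-like cells 21.0% at 84.2 CPM (79.9 to 88.7). In the naive library the macrophage-like cells stood at 76.4 CPM (64.9 to 89.4) and the monocyte-like cells at 56.3 CPM (45.8 to 68.5), and the intervals overlap. At 2 hours the monocyte-like cells held 75.3% of Ccl2 at 232 CPM (200 to 267). The 7 macrophage-like cells of that library had 0 Ccl2 UMIs, and with so few cells their level could not be measured. When cells were called 1 by 1 over all barcodes, 92 macrophage-like cells were found at 2 hours, with Ccl2 at 121 CPM (69.2 to 196). Small classes also had Ccl2. Conventional dendritic-like cells stood at 141 CPM (85.2 to 221) at 2 hours, from 19 UMIs in 50 cells. All 13 epithelial-like Ccl2 UMIs at 2 hours came from 1 cell. At 3 days 23 epithelial-like cells had 14 Ccl2 UMIs, at 111 CPM (60.7 to 186).

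Ccl2 in macrophage-like cells was 6.21-fold higher at 3 days than in the naive library (log2 ratio 2.63, 2.40 to 2.87), but different kinds of macrophage made up the class. The naive alveolar macrophage-like cells had Ccl2 at 60.5 CPM (50.1 to 72.3), and the 178 naive barcodes with macrophage markers that the filters left out, 164 of them over the UMI or gene limit, at 82.3 CPM. At 3 days the C1q macrophage-like cells had 507 CPM (482 to 533) and the Saa3/Arg1 macrophage-like cells 460 CPM (444 to 476), a ratio of 1.10 (1.04 to 1.17). Only 6 naive cells were C1q macrophage-like, and their 36 Ccl2 UMIs gave 632 CPM (442 to 874), with 19 of the UMIs in 1 cell. Within the C1q class no rise of Ccl2 from naive to 3 days was detectable with so few naive cells.

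In monocyte-like cells Ccl2 was highest at 2 hours. It was 4.12-fold higher at 2 hours than in the naive library (log2 ratio 2.04, 1.68 to 2.41) and 1.50-fold higher at 3 days (0.58, 0.29 to 0.89). The 3-day difference was within counting error on the scale of short-intron genes (0.23, -0.07 to 0.54), where the 2-hour one was 1.61 (1.25 to 1.97). Of the 2 members with at least 20 UMIs in that comparison at 2 hours, Ccl2 and Ccr2, 1 was at least 2-fold higher and 0 lower, where 8.50% of genes were higher and 28.1% lower. At 3 days 1 of 3 members, Ccl7 with 51 UMIs against 1, was at least 2-fold higher and 0 lower, where 8.89% of genes were higher and 15.7% lower. That Ccl7 level, 3.04 CPM, was no higher than in B-like, NK-like or neutrophil-like cells of the same library (3.96, 4.60 and 4.67 CPM), and no monocyte-like expression is read from it. Classical monocyte-like cells, named for Ly6c2, Vcan and Plac8, had Ccl2 at 84.0, 198 and 98.0 CPM in the naive, 2-hour and 3-day libraries. Nonclassical monocyte-like cells, named for Ace, Treml4 and Adgre4, had 27.5, 248 and 38.2 CPM. At 2 hours nonclassical cells were 9.01-fold above naive (log2 ratio 3.17, 2.54 to 3.86) and classical cells 2.35-fold (1.23, 0.70 to 1.76), but 118 of the 137 nonclassical UMIs came from the subcluster described next. Without it nonclassical cells had 23.5 CPM in the naive library and 43.6 CPM at 2 hours, a ratio of 1.86 that is within counting error (0.924 to 3.76). At 3 days that subcluster held 106 of the 148 nonclassical UMIs, and 1 nonclassical cell held 60. Without the subcluster the nonclassical ratio of 3 days to naive was 0.521 (0.294 to 0.962), from 42 and 18 UMIs, so no 3-day rise is read for this class.

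Most of the monocyte-like Ccl2 at 2 hours sat in a small group of these cells. A subcluster named nonclassical monocyte-like, but led by the heat-shock genes Hspa1a and Hspa1b and the immediate early genes Atf3 and Jun, held 118 of the 189 monocyte-like Ccl2 UMIs at 2 hours in 64 cells. Its Ccl2 level was 1008 CPM, 9.92-fold that of the other 435 monocyte-like cells (7.33 to 13.5), which stood at 102 CPM. Hspa1a was at 1957 CPM in the subcluster and 27.2 CPM in the other monocyte-like cells at 2 hours. Without the subcluster, monocyte-like Ccl2 was 1.81-fold above naive at 2 hours (log2 ratio 0.85, 0.39 to 1.31) instead of 4.12-fold. At 3 days the subcluster had 48 cells with Ccl2 at 239 CPM, 2.98-fold the other monocyte-like cells (2.42 to 3.64), and in the naive library 8 cells at 57.4 CPM. Ccr2 did not separate the subcluster from all other monocyte-like cells pooled at 2 hours (1.08-fold, 0.71 to 1.58). It did separate it from the class it was named for. Its Ccr2 was 265 CPM (180 to 376) at 2 hours, against 64.4 CPM (42.8 to 93.1) in the largest other nonclassical subcluster. The same values were 698 against 46.7 CPM in the naive library and 668 against 55.7 CPM at 3 days. The part of stress during tissue dissociation in these Ccl2 levels was not tested.

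The 2-hour sum of the ligands depended on the cells led by heat-shock genes. The 4 ligands together stood at 18.5, 24.5 and 149 CPM over all kept cells in the naive, 2-hour and 3-day libraries. Their log2 ratio to naive was 3.00 at 3 days (2.85 to 3.15) and 0.40 at 2 hours (0.17 to 0.63). The 2-hour value was -0.32 (-0.62 to -0.04) without the subclusters led by heat-shock genes, -0.72 (-0.92 to -0.53) with all deposited barcodes and -0.07 (-0.30 to 0.16) on the scale of short-intron genes. The direction at 2 hours therefore changed with these choices, whereas at 3 days the summed ligands were higher under all of them.

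Ccl7 was held mostly by macrophage-like cells at 3 days, where they had 2242 of its 2453 UMIs, or 91.4% (90.2% to 92.5%), at 230 CPM (220 to 240), and 28.1% of these cells had a UMI. Under other choices of filter, cell naming and scale, this share of Ccl7 ran from 79.6% to 91.8%. Monocyte-like cells had 3.04 CPM (2.26 to 3.99) from 51 UMIs, so the macrophage-like level was 75.7 times the monocyte-like level for Ccl7 but 5.63 times for Ccl2. C1q and Saa3/Arg1 macrophage-like cells had similar Ccl7, at 248 and 222 CPM (ratio 1.12, 1.02 to 1.22). On the scale of short-intron genes these classes did not differ beyond counting error in Ccl7 (log2 ratio 0.01, -0.12 to 0.14) or Ccl2 (-0.0085, -0.10 to 0.08). Of the 5 members, 4 (all ligands) were at least 2-fold higher in macrophage-like than in monocyte-like cells at 3 days and 0 at least 2-fold lower, where 14.7% of 11632 genes were higher and 12.3% lower.

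The naive and 2-hour Ccl7 counts came from few cells. Naive kept cells had 47 Ccl7 UMIs, 26 of them in 1 C1q macrophage-like cell and 9 in 1 cell of the B-like class. The 6 naive C1q macrophage-like cells together had 28 Ccl7 UMIs and a level not below that at 3 days (log2 ratio of 3 days to naive -0.99, -1.53 to -0.39), which rests on that 1 cell. The naive macrophages left out by the filters had Ccl7 at 39.6 CPM, and all naive barcodes called macrophage 33.4 CPM (29.4 to 37.7), against 223 CPM (214 to 231) for those at 3 days. At 2 hours 6 of the 10 Ccl7 UMIs came from 1 cell. Ccl7 was thus about 14.7 times the naive level in kept macrophage-like cells at 3 days (log2 ratio 3.87, 3.37 to 4.43), and still several fold higher when the naive macrophages left out were counted.

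**Figure D2:**
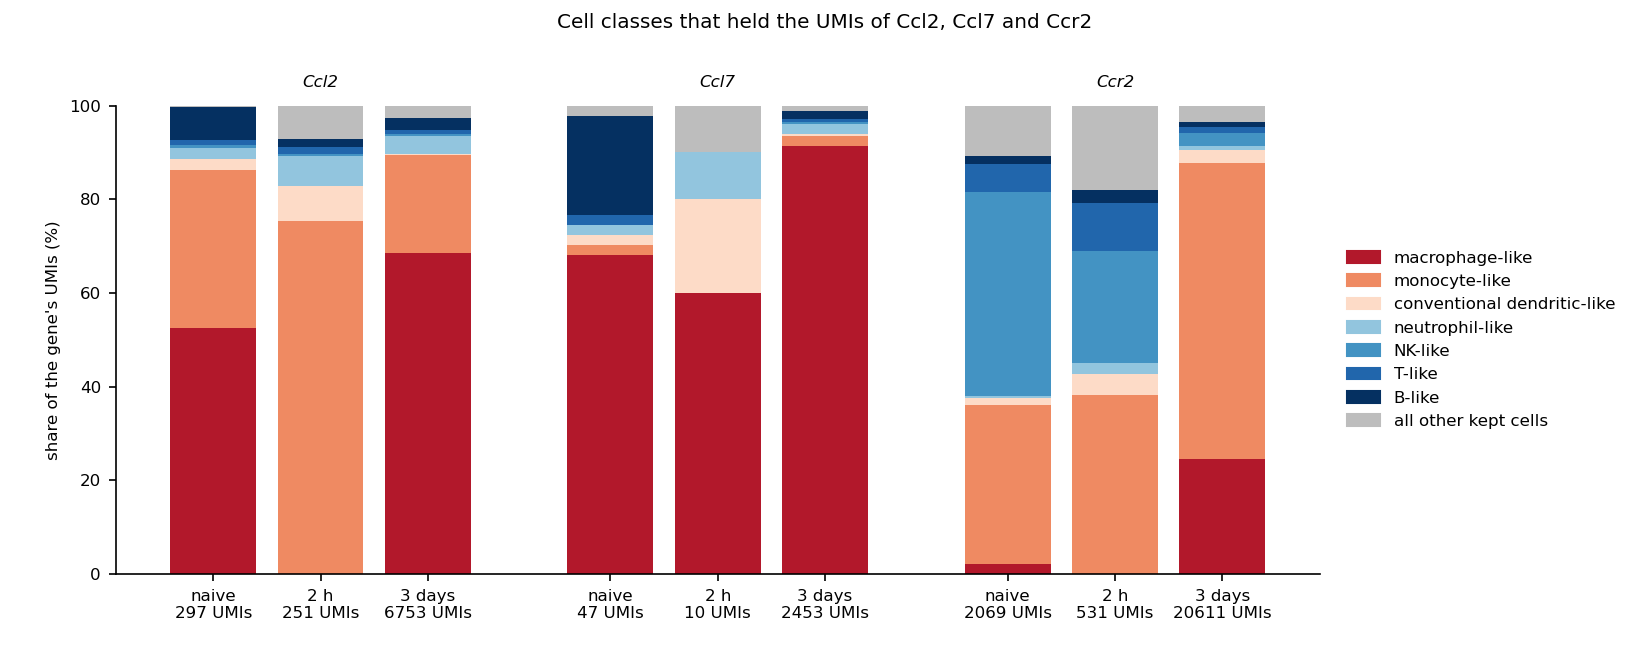
Share (%) of the UMIs of Ccl2, Ccl7 and Ccr2 held by each cell class, with the naive, 2-hour and 3-day libraries as bars and the number of UMIs under each bar. Macrophage-like cells (red) held 91.4% of Ccl7 at 3 days, monocyte-like cells (orange) 75.3% of Ccl2 at 2 hours, and for Ccr2 the NK-like share fell from 43.5% in the naive library to 2.78% at 3 days; the 2-hour Ccl7 bar rests on 10 UMIs.

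Ccl8 and Ccl12 were the rare ligands, and both were held by C1q macrophage-like cells. At 3 days these 188 cells had 93 of the 113 Ccl8 UMIs, at 30.6 CPM, and 113 of the 148 Ccl12 UMIs, at 37.1 CPM. The 640 Saa3/Arg1 macrophage-like cells had 9 Ccl8 UMIs (1.34 CPM) and 24 Ccl12 UMIs (3.58 CPM). The C1q level was 22.8 times the Saa3/Arg1 level for Ccl8 (11.5 to 51.3) and 10.4 times for Ccl12 (6.63 to 16.9), whereas Ccl2 and Ccl7 differed little between these classes. With each cell called on its own, these ratios were 2.26 for Ccl8 (1.30 to 4.15) and 4.65 for Ccl12 (2.78 to 8.24). Ccl8 had 0 UMIs in the monocyte-like cells of all 3 libraries, which at 3 days allows a level of up to 0.179 CPM. Few cells carried these counts: 9 of the 188 C1q macrophage-like cells had a Ccl8 UMI and the top cell held 30.1% of them, while 31 cells (16.5%) had a Ccl12 UMI.

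Over 27 combinations of library and cell class with at least 50 cells, the levels of Ccl8 and Ccl12 had a Pearson r of 0.97. This is a description over points that share libraries and depth. Only the 3-day C1q macrophage-like cells stood high, at 30.6 CPM for Ccl8 and 37.1 CPM for Ccl12. All other points were below the 10 CPM added before taking logs, for both genes. The r of 0.97 and the likeness of the 5 genes named next therefore rest mainly on that class, and joint variation elsewhere was not shown. The genes most like both were the same 5 (Fcrls, Ms4a7, Col14a1, Olfml3 and Tmem119, with r of 0.86 to 0.98 for Ccl8 and 0.85 to 0.97 for Ccl12). Ccl7 was most like the complement genes C1qc, C1qb and C1qa, then Folr2 and Fcna (r of 0.92 to 0.96). Its r values rest mainly on both 3-day macrophage-like classes, at 248 and 222 CPM. The next highest point, conventional dendritic-like cells at 2 hours, had 14.9 CPM from 2 UMIs. Ms4a7, C1qa, C1qb and C1qc were also among the markers used to name the C1q class. Genes like Ccl2 included Zfp703, Mfsd1, Gm6377 and Ctsb (0.86 to 0.88), and it was less like Ccl7 (0.66) or Ccr2 (0.60). Ccr2 was most like Gas7, S100a4, Atp5f1, Cops9 and F13a1 (0.81 to 0.84), of which F13a1 was a marker used to name classical monocyte-like cells.

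Since Ccl8 and Ccl12 were highest in the same cell class, the 250 bases before their RefSeq starts are shown (GRCm38.p6, plus strand), with matches to TATAAA and to GAGGAA or its reverse complement in capitals:
Ccl12, chr11:82101595-82101844: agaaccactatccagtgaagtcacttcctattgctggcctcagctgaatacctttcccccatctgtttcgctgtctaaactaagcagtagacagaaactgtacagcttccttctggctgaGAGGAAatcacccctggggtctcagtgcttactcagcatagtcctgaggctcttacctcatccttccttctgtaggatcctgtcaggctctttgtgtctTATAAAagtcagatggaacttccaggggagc
Ccl8, chr11:82114935-82115184: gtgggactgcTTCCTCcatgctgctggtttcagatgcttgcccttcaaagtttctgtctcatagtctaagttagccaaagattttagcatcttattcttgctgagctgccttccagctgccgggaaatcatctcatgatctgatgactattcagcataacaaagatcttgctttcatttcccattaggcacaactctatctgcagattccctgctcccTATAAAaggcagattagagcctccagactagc
These windows were 58.8% identical, where the window of Ccr2, on another chromosome, was 49.2% identical to that of Ccl8 and 48% to that of Ccl12. TATAAA, the TATA box, stood 31 bases before the start of Ccl12 and 32 before that of Ccl8, and was in 12.4% of the 32851 windows of this length in the table on either strand. GAGGAA, the core bound by the myeloid factor PU.1, was in 23.25% of windows. TGANTCA (AP-1, in 6.75% of windows), GGANTTTCC (NF-kB, 1.065%) and TTGNGNAA (C/EBP, 11.7%) had no match in the windows of Ccl8, Ccl12 or Ccr2, the 3 members with an entry. The search covered both strands, and a match is a description of letters and not a binding site.

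The count of Ccl2 UMIs per Ccl7 UMI differed between macrophage-like and monocyte-like cells at 3 days. Macrophage-like cells had 2.06 Ccl2 UMIs per Ccl7 UMI (1.96 to 2.17), with 2.05 in the C1q and 2.07 in the Saa3/Arg1 class. Classical monocyte-like cells had 35.2 (25.3 to 50.5) and nonclassical ones 9.87 (5.79 to 18.1). Their Ccl7 levels, 2.79 and 3.87 CPM, were no higher than in B-like, NK-like or neutrophil-like cells of the same library. No expression is read from such Ccl7 counts, so the monocyte-like ratios do not give a ligand mix. The naive alveolar macrophage-like cells, with 120 Ccl2 and 4 Ccl7 UMIs, had an interval of 11.4 to 112 for this ratio, which overlaps the classical monocyte-like ratio. The library as a whole went from 6.32 in the naive kept cells to 25.1 at 2 hours and 2.75 at 3 days. The naive value depended on the filters. Kept naive cells had 297 Ccl2 and 47 Ccl7 UMIs, and the naive barcodes left out had 542 and 228. Those left out with macrophage markers had Ccl2 at 82.3 CPM and Ccl7 at 39.6 CPM. The kept naive ratios therefore do not stand for all naive macrophages, and no fall from naive to 3 days is read. Of all ligand UMIs at 3 days, 71.3% were Ccl2, 25.9% Ccl7, 1.56% Ccl12 and 1.19% Ccl8.

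**Figure D3:**
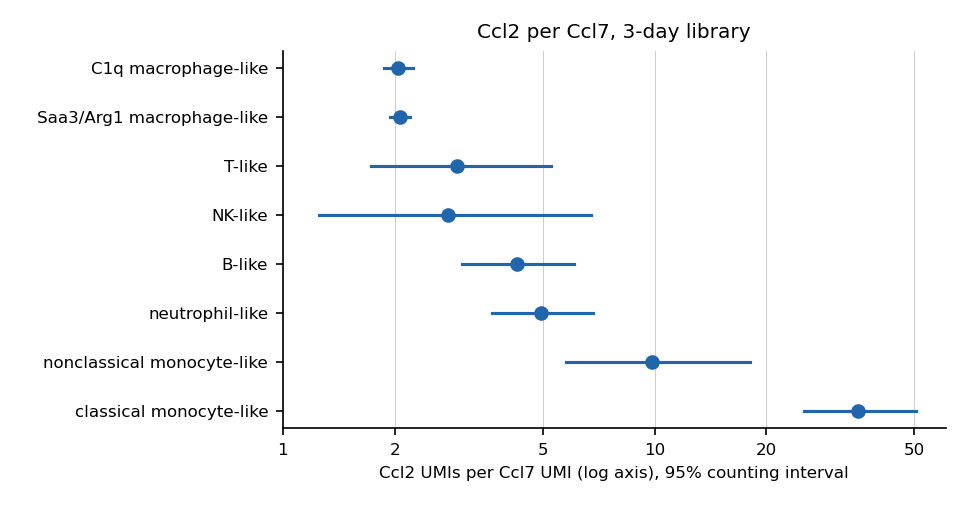
Ccl2 UMIs per Ccl7 UMI (log axis) by cell class in the 3-day library, with 95% counting intervals. Both macrophage-like classes sit near 2 with narrow intervals, the lymphocyte-like and neutrophil-like classes between 2.78 and 4.96, and classical monocyte-like cells at 35.2. Outside the macrophage-like classes the Ccl7 UMIs were at levels from which no expression is read.

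Within both macrophage-like classes, cells with Ccl7 more often had Ccl2 as well. For Ccl8 and Ccl12 too few cells had Ccl8 to compare. Of the 9 C1q cells with Ccl8, 1 (11.1%) had Ccl12, against 16.8% of the 179 without Ccl8. Of the 54 C1q macrophage-like cells with a Ccl7 UMI at 3 days, 48 (88.9%) also had Ccl2, against 47.0% of the cells without Ccl7. Of the 179 such Saa3/Arg1 macrophage-like cells, 139 (77.7%) also had Ccl2, against 41.2% of those without. Median depths were close in the pairs compared, at 16329 and 17139 UMIs in the C1q class and 10416 and 9649 in the Saa3/Arg1 class. Expression was also uneven: the 83 of 829 macrophage-like cells with the most UMIs of a gene held 66.4% of their Ccl2 and 83.5% of their Ccl7 UMIs, against 43.6% of their Ccr2 UMIs. Among C1q macrophage-like cells 63 of 188 had none of the 4 ligands, 65 had 1, 41 had 2, 18 had 3 and 1 had all 4. Among the Saa3/Arg1 cells 268 of 640 had none and 6 had 3 or more, and among the classical monocyte-like cells 489 of 765 had none, 258 had 1 and 18 had 2.

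Similar shares of lymphocyte-like and neutrophil-like cells had ligand UMIs. At 3 days 6.39% of B-like cells had a Ccl2 UMI, against 6.26% of T-like, 6.25% of NK-like and 7.14% of neutrophil-like cells, which held medians of 5021, 8357.5, 5231.5 and 4446 UMIs per cell. For Ccl7 the shares were 2.08%, 2.25%, 2.81% and 2.25%. Endothelial-like cells, with a median of only 1176 UMIs, had 5.41% for Ccl2 and 0.901% for Ccl7. Equal shares at unlike depths are not equal levels. Ccl2 stood at 23.2 CPM (20.4 to 26.2) in neutrophil-like, 16.8 (14.5 to 19.5) in B-like and 16.4 (6.03 to 35.8) in endothelial-like cells. It was 12.8 CPM (8.27 to 18.9) in NK-like and 7.52 (5.68 to 9.76) in T-like cells. No expression is read from these low counts in unlike classes, and whether they came from free RNA was not tested. Ccl7 stood at 3.96 CPM in B-like cells (43 UMIs, 2.86 to 5.33) and 2.55 CPM in T-like cells (19 UMIs, 1.54 to 3.98), a log2 ratio of 0.63 (-0.18 to 1.50), and at 4.60 CPM in NK-like and 4.67 CPM in neutrophil-like cells. When each cell was called on its own, Ccl7 was 2.94 times as high in B-like as in T-like cells (1.83 to 4.93), from 88 and 22 UMIs. Macrophage-like cells held 58.1 times the B-like level.

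Ccl2 in B-like cells was 5.85 CPM in the naive library (21 UMIs), 2.67 CPM at 2 hours (4 UMIs) and 16.8 CPM at 3 days (183 UMIs, 14.5 to 19.5). Of the 3 members with at least 20 UMIs, 1 (Ccl2) was at least 2-fold higher in B-like cells at 3 days than naive and 0 lower, where 7.20% of genes were higher and 20.4% lower. Over the same interval Ccl2 went from 0.569 to 7.52 CPM in T-like cells, from 0.470 to 12.8 CPM in NK-like cells and from 3.10 to 23.2 CPM in neutrophil-like cells, so the rise was not particular to B-like cells. Ccl2 was 2.24 times as high in B-like as in T-like cells at 3 days (1.65 to 3.08; with all barcodes, each called on its own, a log2 ratio of 0.20, -0.13 to 0.52), and 1.59 times (1.15 to 2.21) without a heat-shock-led B-like subcluster in which 34 cells held 56 of the 183 UMIs. The naive B-like value rested on 1 cell of that subcluster, with 18 Ccl2 and 9 Ccl7 UMIs. It had 20 UMIs of the B cell gene Cd79a but also 37 of Lyz2 and 13 of C1qa, macrophage genes, and was not called a doublet. Without the heat-shock-led subcluster, naive B-like cells had 3 Ccl2 UMIs (0.845 CPM) and 3-day ones 127 (11.9 CPM). The summed ligands of B-like cells had a log2 ratio of 3 days to naive of 1.29 (0.75 to 1.88), and 4.01 (2.63 to 5.90) without the top cell of each library.

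Ccr2 marked classical monocyte-like cells in every library. These stood at 650 CPM in the naive library (599 to 705), 547 CPM at 2 hours (461 to 644) and 970 CPM at 3 days (953 to 987). Nonclassical monocyte-like cells stood at 130, 107 and 126 CPM, with log2 ratios to naive of -0.28 (-0.76 to 0.19) at 2 hours and -0.04 (-0.34 to 0.27) at 3 days. Classical cells thus had 5.02, 5.12 and 7.68 times the nonclassical level. The heat-shock-led subcluster, counted as nonclassical, held 73 of 113, 31 of 59 and 297 of 490 nonclassical Ccr2 UMIs, and without it the ratios were 12.5 (9.05 to 17.6), 8.51 (5.65 to 13.3) and 17.3. In classical cells Ccr2 was 1.49-fold above naive at 3 days (log2 ratio 0.58, 0.46 to 0.70; 0.30, 0.18 to 0.43, on the scale of short-intron genes; 2.40 at clustering resolution 0.4, where the naive class had 49 Ccr2 UMIs in place of 588), and the difference at 2 hours was within counting error (-0.25, -0.52 to 0.02). Over all monocyte-like cells the 3-day ratio was larger, 1.96-fold (0.97, 0.86 to 1.09), and classical cells were 765 of 1249 monocyte-like cells at 3 days against 61 of 142 in the naive library.

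Macrophage-like cells at 3 days also carried Ccr2. The C1q class had 870 CPM (837 to 903), close to the classical monocyte-like level (ratio of classical to C1q 1.12, 1.07 to 1.16), and the Saa3/Arg1 class 361 CPM (347 to 376). The C1q level was 2.41 times the Saa3/Arg1 level (2.28 to 2.54). Naive alveolar macrophage-like cells had 8.57 CPM (4.99 to 13.7). The whole monocyte-like class had 1.49 times the Ccr2 of the macrophage-like class at 3 days (log2 ratio 0.58, 0.53 to 0.62). A Ccr2 UMI was common in these cells whether or not they had a ligand UMI: it was found in 90.4% of C1q cells with any ligand and 98.4% of those without, in 55.9% and 47.4% of Saa3/Arg1 cells, and in 98.2% and 97.1% of classical monocyte-like cells.

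NK-like cells were another large source of Ccr2 in the naive and 2-hour libraries. They stood at 211 CPM in the naive library (198 to 226), 180 CPM at 2 hours (150 to 214) and 292 CPM at 3 days (269 to 317), or 8.99, 8.68 and 7.98 times the T-like level of the same library. With each cell called on its own, so that unnamed subclusters also gave T-like cells, the ratios were 4.07 (3.56 to 4.68), 4.28 (3.24 to 5.64) and 3.56 (3.17 to 3.98). The log2 ratio of 3 days to naive was 0.47 (0.31 to 0.62), but 0.07 (-0.09 to 0.22) on the scale of short-intron genes. With 515 of 2422 naive cells they held 43.5% of naive Ccr2 UMIs, against 33.9% for monocyte-like cells. At 3 days monocyte-like cells held 63.2%, macrophage-like cells 24.6% and NK-like cells 2.78%. Unnamed cells, which are not in the order given next, held 193 Ccr2 UMIs in the naive library and 500 at 3 days. Below the classical monocyte-like and C1q macrophage-like cells at 3 days came conventional dendritic-like (381 CPM), Saa3/Arg1 macrophage-like, plasmacytoid dendritic-like (297 CPM, 26 cells) and NK-like cells, each with an interval that overlaps that of its neighbour in this order. Basophil- and mast-like (166 CPM) and nonclassical monocyte-like cells, which also overlap, followed, then T-like (36.6 CPM), B-like (17.5 CPM) and neutrophil-like cells (16.4 CPM). The names in this order were not equally firm. With each cell called on its own at 3 days, 91.5% of classical monocyte-like cells kept their name. Only 50.31% of Saa3/Arg1 macrophage-like and 14.46% of conventional dendritic-like cells did. Endothelial-like cells, not known for Ccr2, had 0 UMIs in the naive and 2-hour libraries and 13.7 CPM (4.45 to 32.0) at 3 days, an interval that takes in the B-like and neutrophil-like levels, from which no expression is read.

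The share of cells with a Ccr2 UMI followed depth as well as level. Of classical monocyte-like cells 95.1% (58 of 61) had a UMI in the naive library, 51.1% (69 of 135) at 2 hours and 97.5% (746 of 765) at 3 days, where median depth was 15461, 1901 and 17190 UMIs. When each cell was thinned to 500 UMIs, the shares were 25.2%, 22.3% and 35.9%. NK-like cells went from 49.5%, 11.25% and 51.25% to 8.50%, 7.27% and 11.8%, after leaving out 36 shallower cells at 2 hours. Nonclassical monocyte-like cells had thinned shares of 4.86%, 3.90% and 3.77%, with 6 cells left out at 2 hours. The low 2-hour shares before thinning were thus not matched by the thinned ones. At 3 days the thinned share was 33.2% in C1q and 13.7% in Saa3/Arg1 macrophage-like cells.

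**Figure D4:**
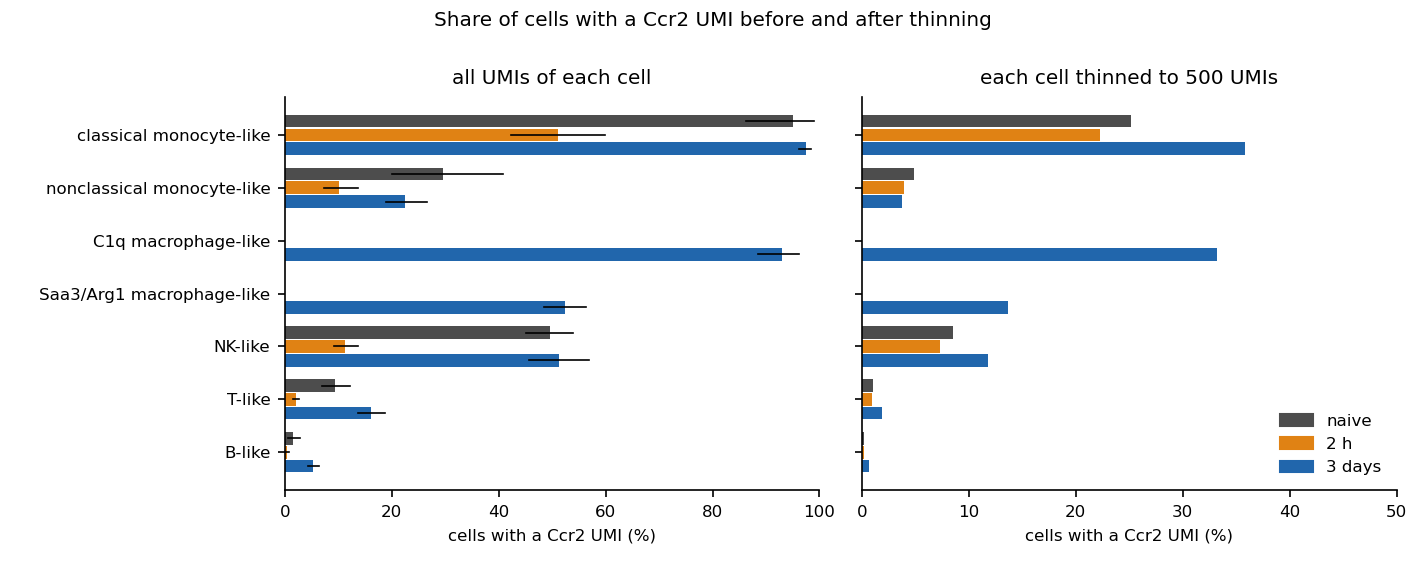
Share of cells with a Ccr2 UMI (%) by cell class in the naive (grey), 2-hour (orange) and 3-day (blue) libraries, with all UMIs of each cell (left, 95% exact binomial intervals) and with each cell thinned to 500 UMIs (right, expected share, axis to 50%). The 2-hour bars are far below the others on the left (51.1% against 95.1% and 97.5% in classical monocyte-like cells) and close to the naive ones on the right (22.3% against 25.2%).

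Ccr1, also a receptor for CCL7, had 147, 554 and 294 CPM over all kept cells in the naive, 2-hour and 3-day libraries, and at 3 days 932 CPM in neutrophil-like, 387 in basophil- and mast-like, 350 in C1q macrophage-like, 314 in Saa3/Arg1 macrophage-like and 275 in classical monocyte-like cells. Among other receptors and scavengers of the ligands, 1 of 3 with at least 20 UMIs was at least 2-fold higher at 2 hours and 1 lower. At 3 days 0 of 4 were higher and 0 lower. Over all genes 7.31% were higher and 40.4% lower at 2 hours, and 6.72% and 29.4% at 3 days.

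Ccrl2, an atypical receptor for chemerin whose gene is also on chromosome 9, had log2 ratios to naive of 3.20 at 2 hours and 1.80 at 3 days. It is not close to Ccr2: 108 protein-coding genes lie between it and Ccr9, the next gene of the list. Of the 6 listed neighbours of Ccr2 with at least 20 UMIs at 2 hours, 2 were at least 2-fold higher and 2 lower. At 3 days 2 of 7 were higher and 1 lower. Beside the ligand genes, Ccl1 had 44, 0 and 4 UMIs in the naive, 2-hour and 3-day libraries, and Ccl11, which lies among the ligand genes, had 5, 0 and 0. Neither neighbour was higher at 3 days, although Ccl11 was too sparse for a ratio.

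The lists below are read against all genes, of which 7.31% were higher and 40.4% lower at 2 hours, and 6.72% and 29.4% at 3 days. Of 18 genes that act downstream of the receptor, 0 were at least 2-fold higher at 3 days and 1 lower, Dock2, which drives leukocyte migration (log2 ratio -2.33), with a list median of -0.02. At 2 hours 1 was higher, Arrb2 (1.58), a beta-arrestin, and 7 were lower, with a median of -0.80 beside -0.70 for all genes. Of 15 genes known to control ligand transcription and mRNA decay, 7 were at least 2-fold higher and 1 lower at 2 hours (median 0.66), and 4 higher and 0 lower at 3 days (0.44). Those higher at 2 hours included the AP-1 genes Fos (2.30) and Jun (1.53), Nfkbia (1.44), an inhibitor of NF-kB, and Zfp36 (1.92), which hastens decay of chemokine mRNA. The gene lower at 2 hours was Nfkb1 (-1.64). Median log2 ratios at 2 hours and 3 days were -0.12 and 0.13 for short-intron genes, but -1.07 and -0.64 for genes with longer introns. The part of intron length in the lower values of Dock2, Nfkb1 and the other genes of these lists was not tested. In macrophage-like against monocyte-like cells at 3 days, 2 of the 15 were at least 2-fold higher and 1 lower, where 14.7% of 11632 genes were higher and 12.3% lower. The list did not stand out from all genes in this comparison. The higher ones were Zc3h12a, whose product degrades Ccl2 mRNA (1.55), and Nfkb1 (1.19).

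The transplant libraries also held counts of 277 antibody tags. The tag for CD192, the CCR2 protein, had 0 of 877259 antibody UMIs at 2 hours and 4 of 1054907 at 3 days, below each of the 9 isotype control tags of the same library (135 to 3667 and 240 to 3640 UMIs). The median tag had 1 and 3 UMIs, so these counts held no usable measure of CCR2 protein beside the mRNA.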

How the data were processed

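Per the file headers and labels, the authors ran Cell Ranger (version 6 in the submitters' processing notes; the naive file names a later one) on the mm10 genome and deposited a matrix of raw UMI counts per gene and barcode for each library, with antibody tag counts for the transplant libraries. For the handling of intron reads, no setting was given in the sources used here. A barcode was kept if it had over 200 but below 6000 genes, a mitochondrial share below 10% and a total below 25000 UMIs. Libraries were clustered together with Seurat 5.3.0 and sctransform 0.4.2 (R 4.3.3; 30 principal components, resolution 0.8, no integration), without the 5 genes among the 2995 variable genes. Each cluster was split again at resolution 0.2, and 68 subclusters were named from marker lists where at least 3 markers stood out. Scrublet doublets (40, 403 and 277 cells in the naive, 2-hour and 3-day libraries) were kept and removed as an alternative.

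UMIs were summed per library and class, with exact Poisson, Clopper-Pearson and conditional binomial intervals; a count of 0 was set at 3 counts. A gene was counted higher or lower at 2-fold or more, with at least 20 UMIs in the pair compared. The named genes were the 5 members, the lists of receptors, neighbours, signalling and control genes, and the 5 genes most alike in level (log2 of CPM + 10). Some genes of these lists are not reported here. The members and lists were chosen with earlier results of these data known. The code for ratios and intervals was checked on totals simulated with Poisson counting error. That simulation left out the unevenness of UMIs between cells, which the intervals do not cover either.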

Additional observations from a re-analysis of the deposited data

How the results depend on the processing

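No paired analysis was possible because each condition was 1 library. Leaving out a replicate was impossible for the same reason. The alternatives on heat-shock-led subclusters, on the top cell and on short introns (at most 10 kb) were chosen after seeing the data. The log2 ratio of the summed ligands at 3 days to naive, 3.00, was 2.04 with all barcodes and 2.63 on the short-intron scale. At 2 hours, 0.40 became -0.72 with all barcodes, -0.072 on the short-intron scale, -0.32 without heat-shock-led subclusters, 0.0028 as a mean over cells and 0.048 thinned to 500 UMIs. Macrophage-like cells held 75.1% of ligand UMIs at 3 days, and 70.5% with all barcodes, 76.2% without doublets, 69.2% with each cell called on its own, 66.3% as a mean over cells or thinned, and 76.4% without heat-shock-led subclusters. The B-like ligand ratio of 3 days to naive, 1.29, was 3.79 at resolution 1.2, 2.37 as a mean over cells or thinned, 4.69 without cells carrying myeloid UMIs, 3.84 without heat-shock-led subclusters and 4.01 without the top cell. Ccl7 in B-like against T-like cells, 0.63, was 1.56 with each cell called on its own. Ccr2 in monocyte-like cells at 3 days to naive, 0.97, was 0.62 on the short-intron scale. The ratio of monocyte-like to macrophage-like Ccr2, 0.58, was 0.49 with each cell called on its own and at resolution 0.4, 0.42 as a mean over cells or thinned, 0.70 outside ribosomal, mitochondrial and immunoglobulin genes, and 0.51 on the short-intron scale. The monocyte-like share of Ccr2, 63.2%, was 65.7%, 66.6% and 51.7% under the first 3 of these. The C1q to Saa3/Arg1 ratio of Ccl2 became -0.0085 on the short-intron scale. Over 20 other results, 145 alternatives stayed within the counting interval, 66 moved out of it and 1, the last named, reversed. The causes were not tested. The 2-hour library was shallow, and its 7 macrophage-like cells allowed no ligand level.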
